A study of Mus musculus with 6 samples.

Results

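Centrosome and cilium transport genes were examined in the livers of acute ethanol-exposed and control mice. The genes were taken by name: every gene whose symbol is Cep, Ift or Bbs followed by a number, together with Sass6, Plk4, Cenpj, Stil, Pcm1 and Ofd1, pseudogenes being left out. This rule found 75 of the 28880 genes in the deposited liver table, of which 41 are Cep genes, 20 Ift genes, 8 Bbs genes and 6 the genes taken one by one. The set was singled out with the results of this same ethanol-against-control contrast known, so all values of its genes in that contrast are given as a description and not as a test.

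The centrosome is the main microtubule organizing centre of animal cells and is built around a pair of centrioles. Proliferating cells duplicate their centrioles once per cycle, a process started by the kinase PLK4 with STIL and the cartwheel protein SASS6, and in quiescent cells the older centriole becomes the basal body from which a primary cilium grows. Proteins enter and leave the cilium on intraflagellar transport (IFT) trains, made of the IFT-A and IFT-B complexes, and on the BBSome, an adaptor for membrane proteins. In liver, the primary cilium is known from bile duct cells, whereas mature hepatocytes, the bulk of the tissue, generally carry none and divide little.

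Both groups were wild-type male C57BL/6J mice aged 6 to 8 weeks, with 3 mice and 1 liver library per mouse in each. The acute ethanol-exposed mice were fasted for 12 h, were gavaged orally 1 time with ethanol (50% v/v, dose 6 g/kg), and gave their livers 24 h afterwards. The control mice received no ethanol, and whether they were fasted is not stated in the sources used here, so ethanol and the fast before it cannot be told apart. RNA came from whole liver, a mixture of cell types, and in such samples fewer cells of a type and less RNA per cell cannot be told apart.

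The libraries held 60514417 to 74210869 counts on genes. Scaling factors by edgeR's TMM method ran from 0.768 to 0.836 after ethanol and from 1.26 to 1.27 in control mice, so that 1 count stands for more scaled CPM (counts relative to library size) after ethanol. Among the 3 ethanol-exposed mice, replicate 3 lay farthest from the other two for 35 of the 70 genes tested, against 18 for replicate 1 and 17 for replicate 2. The median ratio of SD to mean over these genes was 0.279 in ethanol-exposed mice, for 69 genes since Sass6 has no ratio there, and 0.119 in control mice. Over all genes tested it was 0.237 in ethanol-exposed mice, for the 16609 with a ratio, and 0.116 in control mice. Of the 75 genes, 6, 4 and 9 had no count in ethanol replicates 1, 2 and 3, and 0, 2 and 2 had none in the control replicates.

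More of these genes were downregulated than upregulated after ethanol, and most were not called. In all, 70 genes had enough counts to be fitted. A gene was called downregulated or upregulated when its Benjamini-Hochberg adjusted p in edgeR's quasi-likelihood test was under 0.05 and its log2 fold change of ethanol against control was beyond 1. By this rule 25 of the 70 genes (35.7%) were downregulated and 6 (8.57%) were upregulated, where 13.8% of all 16717 genes tested were downregulated and 10.4% upregulated. Because the genes were picked on this contrast, nothing is read from the distance between these shares. The downregulated genes included Sass6, Cenpj, Cep135, Cep250, Cep41, Ift80, Bbs7 and Bbs12, and the 6 upregulated genes were Cep85, Bbs4, Cep85l, Ift172, Ofd1 and Pcm1. The median log2 fold change was -0.82 for the 70 genes and -0.04 for all genes tested, and stayed at -0.82 with Sass6 set to its bound. In 42 genes every ethanol-exposed mouse was below every control mouse, in 9 every one was above, and in 19 the groups overlapped, where the first pattern held for 31% and the second for 28% of all genes tested. Scaling by library size alone moved the median of all genes to -0.71 and gave 45 downregulated and 4 upregulated genes of the set, where 32.2% and 5.06% of all genes were called, with Ofd1 and Pcm1 no longer upregulated. Relative to the median of all genes, the median of the set was -0.77 under both scalings. With ethanol replicate 3 left out, 31 genes were downregulated and 5 upregulated, where 16.5% and 10.9% of all genes were, and with a control mouse left out 18 to 19 genes were downregulated and 6 upregulated, where 9.88% to 10.2% and 8.57% to 8.79% of all genes were.

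**Figure D1:**
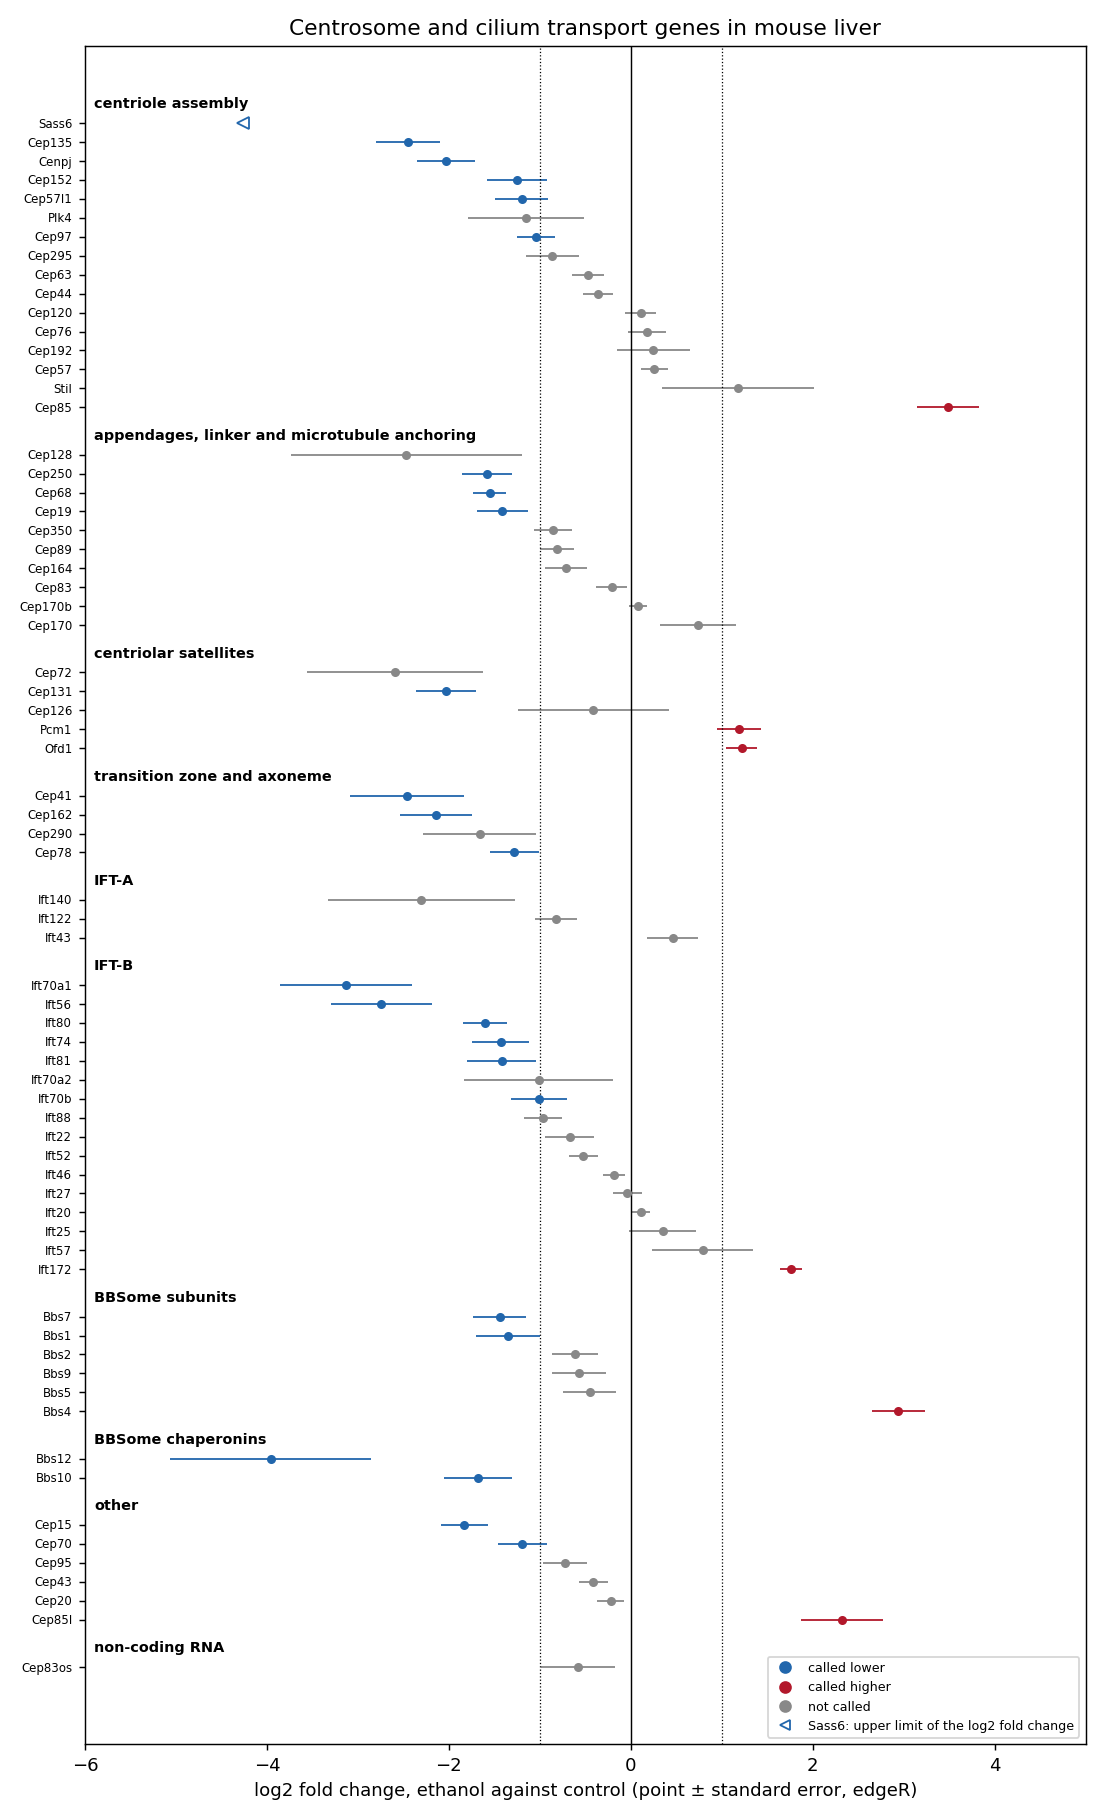
Log2 fold change of ethanol-exposed against control mice for the tested genes that are reported singly, grouped by role, with points for edgeR estimates and bars for ± 1 standard error (3 mice per group). Blue points are the downregulated genes, red points the 6 upregulated genes, grey points those not called, dotted lines mark a log2 fold change of -1 and 1, and the open triangle for Sass6 marks the upper limit of its log2 fold change, since it had no count after ethanol.

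Centriole assembly genes held both the deepest fall and the largest rise of the set. Of 16 genes, 6 were downregulated and 1 upregulated, with a median log2 fold change of -0.66. Of all genes tested, 13.8% were downregulated and 10.4% upregulated, with a median of -0.04. Sass6, which forms the hub of the cartwheel in a new centriole, had 0 counts in all 3 ethanol-exposed mice and 93, 57 and 103 counts in control mice. In CPM this is 0 against 0.991, 0.748 and 1.25, and taken against a floor of 3 counts per library the gene was at least 19.1-fold lower after ethanol. Sass6 lies on chromosome 3 at 116388631 to 116422913 on the plus strand and overlaps Trmt13 on the opposite strand. These are coordinates of the deposited table, whose build is uncertain because the labels name GRCm38 while the coordinates of the 75 genes are not those of GRCm38. Trmt13 had 96, 147 and 150 counts after ethanol, compared with 305, 233 and 187 in control mice. The part of this overlap in the Sass6 counts was not tested.

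The other 5 downregulated genes of this group were Cep135, Cenpj, Cep152, Cep57l1 and Cep97. Cep135, a cartwheel and pinhead protein, measured 0.469, 0.589 and 1.08 CPM after ethanol and 4.10, 3.50 and 4.06 CPM in control mice, a log2 fold change of -2.45 ± 0.35 (SE). Cenpj, which governs the growth of centriolar microtubules, measured 0.765, 0.540 and 0.403 CPM against 2.35, 2.59 and 2.04 CPM, a log2 fold change of -2.03 ± 0.32. In both genes the highest ethanol-exposed mouse was below the lowest control mouse. Cep152, a scaffold that recruits PLK4, measured 1.16, 1.14 and 0.586 CPM against 2.60, 2.18 and 2.14 CPM (log2 fold change -1.25 ± 0.33), and its call was lost when any of ethanol replicate 3 or the 3 control mice was left out. Cep57l1, which holds paired centrioles together, measured 1.15, 1.31 and 1.59 CPM against 4.13, 2.39 and 2.81 CPM (-1.20 ± 0.29), and its call was lost without control replicate 1. Cep97, a partner of the cap protein CP110, had a log2 fold change of -1.04 ± 0.21, just past the fold threshold, and lost its call without ethanol replicate 2.

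The kinase and its main partner were near the limit of detection. Plk4 measured 0.243, 0.164 and 0.660 CPM after ethanol and 0.501, 0.643 and 1.21 CPM in control mice, the groups overlapped, and it was not called (-1.15 ± 0.64). Stil measured 0.243, 0.834 and 0.0916 CPM against 0.117, 0.157 and 0.243 CPM, from 5 to 51 counts after ethanol and 11 to 20 in control mice. Its log2 fold change of 1.18 ± 0.84 was not called and went to -0.04 when ethanol replicate 2 was left out. In the table the Stil row carries only transcript types of nonsense-mediated decay and retained intron, whereas 71 of the 75 genes carry a protein-coding type.

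Cep85, a STIL-binding protein of the centrosome, stood at the other end. It measured 620, 440 and 1040 CPM in ethanol-exposed mice and 50.2, 70.2 and 65.9 CPM in control mice, mean ± SD 699 ± 305 and 62.1 ± 10.6 (n = 3 each). The log2 fold change was 3.49 ± 0.34, and the lowest ethanol-exposed mouse was several times above the highest control mouse. Counts were 26925 to 56511 after ethanol and 4707 to 5431 in control mice, so counting error is small here and the spread between mice sets the precision. Cep85 spans 133857169 to 133914423 on the minus strand of chromosome 4 in the deposited table. Its paralog Cep85l, a pericentriolar gene, was upregulated as well, at 151, 210 and 51.9 CPM against 26.7, 30.1 and 25.9 CPM (2.32 ± 0.45). Ethanol replicate 3 had the highest Cep85 and the lowest Cep85l value of its group. The remaining 7 centriole assembly genes were not called: Cep295 (-0.86 ± 0.29), Cep63 (-0.47 ± 0.18) and Cep44 (-0.36 ± 0.16) had lower values in every ethanol-exposed mouse, and Cep120, Cep76, Cep192 and Cep57 had overlapping groups and log2 fold changes of 0.11 to 0.26.

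**Figure D2:**
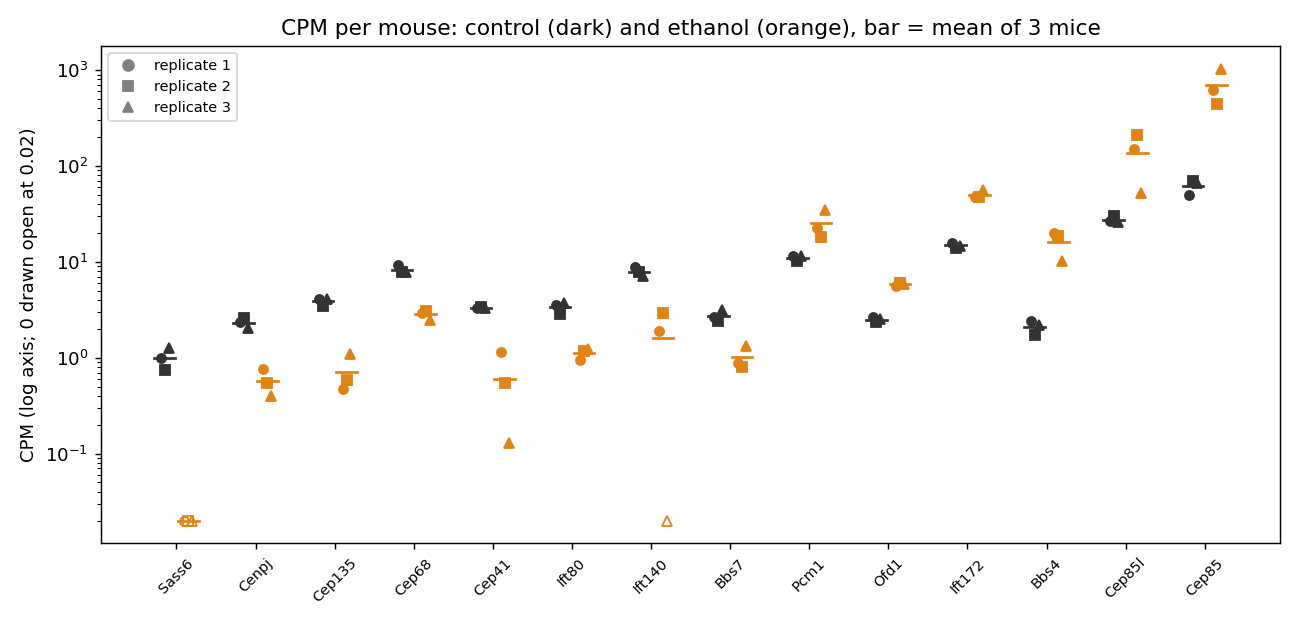
CPM in each mouse (log axis) for 14 genes, with dark symbols for control mice, orange symbols for ethanol-exposed mice, a symbol shape for each replicate number and a bar for the mean of 3 mice. Open symbols at 0.02 stand for 0 counts, which all 3 ethanol-exposed mice had for Sass6 and 1 of them for Ift140, and the groups are apart in each of the 14 genes.

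Genes for the centriole's appendages, for the linker between centrioles and for microtubule anchoring had 3 downregulated members and no upregulated one among 10 tested (median log2 fold change -0.83). Over all genes tested, 13.8% were downregulated and 10.4% upregulated. Cep250, which encodes the linker protein C-NAP1, measured 5.21, 3.78 and 2.40 CPM after ethanol and 10.7, 11.2 and 12.4 CPM in control mice (-1.58 ± 0.28). It overlaps 6430550D23Rik on the opposite strand over 25622 bases, a gene with 27 to 47 counts after ethanol and 119 to 188 in control mice. Cep68, which keeps centrioles joined with C-NAP1, measured 2.94, 3.09 and 2.46 CPM against 9.25, 7.80 and 7.89 CPM (-1.55 ± 0.18), and so both linker genes were low in the same 3 mice. Cep19, a mother centriole protein needed for IFT trains to enter the cilium, measured 1.01, 1.32 and 0.751 CPM against 2.79, 2.55 and 2.88 CPM (-1.41 ± 0.28). The distal appendage genes Cep164 (-0.71 ± 0.23) and Cep89 (-0.81 ± 0.19) and the microtubule anchor Cep350 (-0.85 ± 0.21) were lower in every ethanol-exposed mouse but did not reach the fold threshold. Cep83, the innermost distal appendage gene, had overlapping groups (-0.21 ± 0.17), and Cep170b, related to the subdistal appendage gene Cep170, measured 25.2, 25.9 and 26.4 CPM against 24.2, 26.2 and 22.7 CPM (0.08 ± 0.10). Cep170 itself stood at 16.4 CPM in ethanol replicate 3 and at 5.07 to 6.18 CPM in the other 5 mice (0.74 ± 0.42). Cep128, a subdistal appendage gene, had 0, 17 and 0 counts after ethanol and 43, 30 and 61 in control mice and was not called (-2.47 ± 1.27).

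Centriolar satellites, granules that ferry proteins to the centrosome, were divided. Of 5 genes, 2 were upregulated and 1 downregulated, where 10.4% and 13.8% of all genes tested were. Pcm1, the scaffold of the satellites, measured 22.7, 18.1 and 35.1 CPM after ethanol and 11.6, 10.3 and 11.4 CPM in control mice (1.19 ± 0.24). Its call was lost when ethanol replicate 3, the highest mouse, was left out. Ofd1, which acts at satellites and at the distal centriole, measured 5.63, 6.00 and 5.86 CPM against 2.63, 2.34 and 2.53 CPM (1.22 ± 0.17), with little spread in either group. Cep131, a satellite protein bound to PCM1, went the other way, at 0.782, 0.441 and 0.825 CPM against 3.16, 2.31 and 2.88 CPM (-2.03 ± 0.33). Cep72 (7, 12 and 0 counts against 29, 55 and 77) and Cep126, whose groups overlapped, were not called.

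Genes of the transition zone, the gate at the base of the cilium, and of the axoneme mostly pointed down. Of 5 genes, 3 were downregulated and none upregulated, with a median log2 fold change of -1.66, where 13.8% and 10.4% of all genes tested were called. Cep41, needed for glutamylation of axonemal tubulin, measured 1.15, 0.540 and 0.128 CPM after ethanol and 3.29, 3.40 and 3.32 CPM in control mice (-2.46 ± 0.63). The control mice were nearly equal and the ethanol-exposed mice ranged from 7 to 66 counts, and the call was lost without ethanol replicate 2 or any 1 control mouse. Cep162, which marks the centriole end where the transition zone forms, measured 1.15, 0.474 and 0.568 CPM against 3.96, 2.56 and 3.11 CPM (-2.14 ± 0.40). Cep78, a mature centriole gene, measured 0.817, 1.13 and 0.898 CPM against 2.49, 1.88 and 2.55 CPM (-1.28 ± 0.27). Cep290, the transition zone bridge to the membrane, was at 0.487, 1.18 and 0.165 CPM against 1.62, 2.17 and 2.04 CPM, with no overlap and a large spread, and was not called (-1.66 ± 0.62).

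Of the IFT-B genes named Ift, which encode the complex of outward transport, 6 of 16 were downregulated and 1 upregulated (median log2 fold change -0.81). The shares over all genes tested were 13.8% downregulated and 10.4% upregulated. IFT-A has 3 genes named Ift in the set, and IFT-B was not tested against it. The heterodimer that carries tubulin was lower on both sides: Ift74 measured 0.939, 0.932 and 0.568 CPM after ethanol and 2.55, 1.85 and 2.20 CPM in control mice (-1.43 ± 0.31), and Ift81 measured 0.504, 1.29 and 0.751 CPM against 2.15, 2.07 and 2.61 CPM (-1.42 ± 0.38). The call of Ift81 was lost when any 1 control mouse was left out. Ift80, of the peripheral part of IFT-B, measured 0.939, 1.18 and 1.23 CPM against 3.52, 2.89 and 3.72 CPM (-1.60 ± 0.24). The processed pseudogene Gm18588 overlaps Ift80 on the same strand over 492 bases. It had 251, 291 and 302 counts after ethanol and 250, 291 and 163 in control mice. Ift74, Ift81 and Ift80 had no ethanol-exposed mouse within the control range. Ift56 had 8, 5 and 4 counts after ethanol and 69, 66 and 33 in control mice, that is 0.139, 0.0818 and 0.0733 CPM against 0.735, 0.866 and 0.401 CPM (-2.74 ± 0.55).

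The 3 Ift70 genes are near-identical copies that lie close together on chromosome 2, and reads may have been divided between them in a way that the counts do not show. Ift70a1 measured 0.295, 0.0327 and 0.0733 CPM against 1.25, 1.40 and 0.886 CPM (-3.13 ± 0.73), from 17, 2 and 4 counts against 117, 107 and 73. Its call was lost without control replicate 2. Ift70b had a log2 fold change of -1.01 ± 0.31, at the threshold, and lost its call when any library other than ethanol replicate 3 was left out. Ift70a2, at 0.0491 to 0.328 CPM in all mice, was not called.

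Ift172, the largest IFT-B subunit, was the only upregulated IFT gene of the set. It measured 47.4, 47.2 and 56.2 CPM after ethanol and 15.9, 14.1 and 14.5 CPM in control mice, mean ± SD 50.3 ± 5.15 and 14.8 ± 0.954 (n = 3 each), a log2 fold change of 1.76 ± 0.12. Both groups were tight and far apart. Ift20, which also has a place at the Golgi, measured 24.8, 26.4 and 25.4 CPM against 24.7, 23.7 and 22.4 CPM (0.11 ± 0.10), the groups being separated by less than their own ranges. Ift27 (-0.04 ± 0.16), Ift46 (-0.18 ± 0.12), Ift25 and Ift57 had overlapping groups, and Ift22 (-0.67 ± 0.27), Ift52 (-0.52 ± 0.16) and Ift88 (-0.96 ± 0.21), the last a core subunit needed for cilia to form, were lower in every ethanol-exposed mouse without a call.

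None of the 3 IFT-A genes, which serve return transport and the entry of membrane proteins, was called. Ift140 had 108, 178 and 0 counts after ethanol, compared with 823, 598 and 580 in control mice, that is 1.88, 2.91 and 0 CPM against 8.77, 7.85 and 7.04 CPM. The values were apart, but the ethanol-exposed mice ranged widely and the standard error was large (-2.30 ± 1.03). Ift122 measured 2.19, 2.14 and 1.89 CPM against 2.86, 4.07 and 4.04 CPM (-0.82 ± 0.23), and Ift43 was higher in every ethanol-exposed mouse (0.46 ± 0.28).

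BBSome genes showed opposite changes within 1 complex. Of 6 subunits, 2 were downregulated, 1 was upregulated and 3 were not called, where 13.8% of all genes tested were downregulated and 10.4% upregulated. Bbs7, a propeller subunit, measured 0.886, 0.801 and 1.34 CPM after ethanol and 2.63, 2.43 and 3.15 CPM in control mice (-1.44 ± 0.29). Bbs1, which binds the small GTPase ARL6, measured 0.348, 0.392 and 0.293 CPM against 0.842, 0.932 and 0.874 CPM (-1.35 ± 0.35), from 16 to 24 counts against 71 to 79, and its call was lost without any 1 control mouse. Bbs4, the subunit that associates with PCM1, measured 20.1, 18.5 and 10.2 CPM against 2.41, 1.73 and 2.20 CPM, mean ± SD 16.3 ± 5.32 and 2.11 ± 0.346 (n = 3 each), a log2 fold change of 2.94 ± 0.29. Bbs4 and the 2 subunits above had no mouse of one group within the range of the other. Bbs2 (-0.61 ± 0.25), Bbs9 (-0.57 ± 0.30) and Bbs5 (-0.45 ± 0.29) were not called.

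Both chaperonin-like genes of the set that help to assemble the BBSome were downregulated, where 13.8% of all genes tested were. Bbs12 had 0, 0 and 5 counts after ethanol and 51, 37 and 35 in control mice, that is 0, 0 and 0.0916 CPM against 0.543, 0.486 and 0.425 CPM, with a log2 fold change of -3.96 ± 1.11 that rests on these 5 counts. Its call was lost without ethanol replicate 1, without ethanol replicate 2 and without each control mouse. Bbs10 measured 1.56, 1.10 and 0.568 CPM against 3.48, 3.48 and 3.39 CPM (-1.68 ± 0.37), the control mice being nearly equal.

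Of the genes with no role group of their own, Cep15 was the most changed downwards, at 3.18, 2.55 and 1.85 CPM against 10.6, 7.23 and 9.27 CPM (-1.83 ± 0.26). It shares its whole span of 19023 bases with Gm49355 on the same strand, a gene with at most 17 counts in any library. Cep70, a centrosomal protein that binds gamma-tubulin, had a log2 fold change of -1.19 ± 0.27, while Cep95 (-0.72 ± 0.24), Cep43 (-0.41 ± 0.16) and Cep20 (-0.22 ± 0.15) were not called. The non-coding Cep83os, antisense in name to Cep83, was not called (-0.58 ± 0.41). The 5 genes too low to be tested were Cep112, the cytokinesis gene Cep55, the non-coding Cep112it and Ift88os, and Cep295nl, none of which exceeded 28 counts in a library. Cep55 was at 0, 15 and 0 counts after ethanol and 8, 0 and 3 in control mice.

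Levels between genes were compared in FPKM, in which fragments are scaled to transcript length and library size, as deposited. In control mice the group mean of the 75 genes ranged from 0.0042 to 18.2 FPKM with a median of 0.766, and after ethanol from 0 to 97.1 FPKM with a median of 0.247. In control mice 27 genes (36%) reached 1 FPKM, and 15 (20%) did after ethanol. FPKM rest on library size alone, by which all genes tested also stood lower after ethanol, with medians of 1.75 FPKM in control mice and 1.05 FPKM after ethanol and with 60.7% and 50.9% of them at 1 FPKM or more. Ift20 led the control order at 18.2 ± 0.945 FPKM (SD, n = 3), followed by Cep85 at 13.9 ± 2.34, Ift52 at 7.69 ± 0.213, Cep85l at 4.07 ± 0.33, Cep43 at 3.69 ± 0.0923 and Cep170b at 3.59 ± 0.265 FPKM. Cep43 and Cep170b differed by less than their spread. After ethanol Cep85 was first, at 97.1 ± 39.2 FPKM, and Ift20 was at 12.4 ± 0.963 FPKM, lower than in control mice on this scale although not in TMM-scaled CPM.

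The sum over the set therefore went the opposite way from its median. Summed CPM of the 75 genes was 452 to 457 in control mice and 978 to 1440 in ethanol-exposed mice. Cep85 alone supplied 11% to 15.5% of the sum in control mice and 45% to 72.1% after ethanol. Without Cep85 and Cep85l, the other 73 genes summed to 353 to 380 CPM in control mice and 328 to 349 CPM after ethanol, so that these ranges did not overlap either, in the other direction.

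The downregulated genes were mostly low by their mean over the 6 libraries. This mean includes the ethanol-exposed mice, so a gene's own change helps to decide its level. Bbs4, at 0.41 FPKM in control mice and 2 FPKM after ethanol, counts among the higher genes. Bbs10, at 1.33 FPKM in control mice and 0.26 FPKM after ethanol, counts among the lower ones. Nothing is therefore read from the split by level that follows. Of the 47 genes tested with a mean under 1 FPKM over the 6 libraries, 21 were downregulated and 1 upregulated, where 18.6% and 7.82% of all genes at that level were. Of the 23 genes at 1 FPKM or more, 4 were downregulated and 5 upregulated, where 10.2% and 12.3% of all genes at that level were. Median log2 fold changes were -1.19 and -0.04 for the lower and the higher genes of the set, and -0.39 and 0.12 for all genes at these levels. The median of this mean was 0.599 FPKM for the set and 1.49 FPKM for all genes tested. Transcript length, as implied by the ratio of count to FPKM, had a median of 6267 bases for the set and 4073 bases for all genes tested. With all genes divided by that length into 5 equal bins, from the shortest to the longest, the median log2 fold change went from 0.32 to -0.03, -0.13, -0.18 and -0.19. The set had 1 of 3, 4 of 10, 3 of 10, 11 of 24 and 6 of 23 genes downregulated in these bins, where 8.61%, 13.6%, 15.7%, 15.4% and 15.6% of all genes were. With each library's trend with length removed, 23 genes were downregulated, 6 upregulated, and the median was -0.63, where 11.5% and 11.4% of all genes were called and their median was 0.03. The calls of Cep97 and Ift70b were lost by this. The part of level in the results was not tested, and that of length was not tested beyond this.

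**Figure D3:**
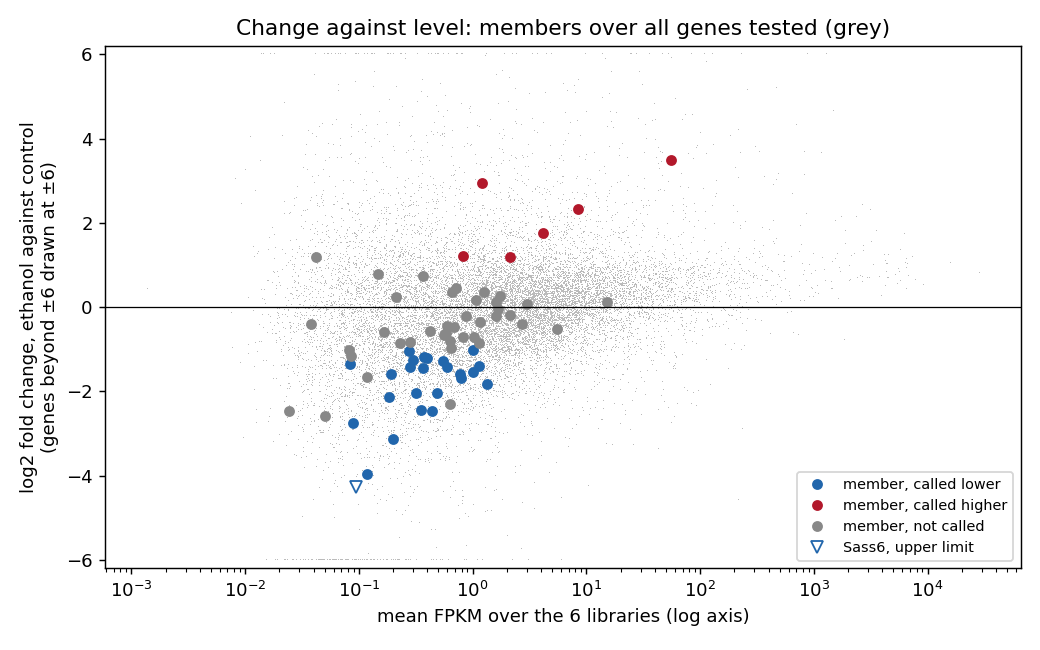
Log2 fold change of ethanol-exposed against control mice (genes beyond ±6 drawn at ±6) against the mean FPKM of the 6 libraries (log axis), for all genes tested in grey and for the 70 genes of the set as large points coloured by call. Of the 25 downregulated genes 21 lie under 1 FPKM, and of the 6 upregulated genes 5 lie at 1 FPKM or more, with Cep85 far to the right. The mean holds the ethanol values too, so a gene's change helps to set its place along this axis.

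The genes of the set share annotation that the name rule did not use. In the gene ontology terms of the deposited table, 58 of the 75 are annotated to the centrosome, 39 to the centriole, 38 to the cilium, 28 to the ciliary basal body, 17 to centriolar satellites, 19 to intraciliary transport and 37 to cilium assembly. All but 6 genes (Stil, Cep164, Cep170b and the 3 non-coding genes) carry at least 1 of these terms. The genes are scattered over the genome, with the most, 10, on chromosome 9 and 7 each on chromosomes 2 and 11. Another gene overlaps 15 of the 75 when only its own strand is considered and 35 when both strands are, and 4 of the 25 downregulated and 2 of the 6 upregulated genes are overlapped on the same strand. Leaving out the genes overlapped on the same strand left 21 downregulated and 4 upregulated of 59 genes tested, with a median log2 fold change of -0.82, beside the 13.8% and 10.4% of all genes.

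Many ciliary genes are controlled by RFX transcription factors, which bind the X-box, an inverted pair of half-sites, and many cell cycle genes by E2F and by the CHR element. Promoters from RefSeq (GRCm38.p6), 250 bases before to 50 bases after the start, were found for 57 of the 75 genes and were searched on both strands. Shown here is that of Cep41, the only gene among these 57 with a full pair. Also shown are those of Bbs7 and Ift172, which hold 1 half-site each and changed in opposite directions, and of Sass6, which holds none. They are written 5′ to 3′ along the gene with half-sites in capitals.
Cep41: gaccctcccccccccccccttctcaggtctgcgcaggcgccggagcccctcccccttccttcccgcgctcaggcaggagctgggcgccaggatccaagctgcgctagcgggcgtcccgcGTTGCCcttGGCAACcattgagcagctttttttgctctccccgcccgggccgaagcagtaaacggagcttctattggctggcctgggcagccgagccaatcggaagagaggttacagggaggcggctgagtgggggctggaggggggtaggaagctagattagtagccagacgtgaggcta
Bbs7: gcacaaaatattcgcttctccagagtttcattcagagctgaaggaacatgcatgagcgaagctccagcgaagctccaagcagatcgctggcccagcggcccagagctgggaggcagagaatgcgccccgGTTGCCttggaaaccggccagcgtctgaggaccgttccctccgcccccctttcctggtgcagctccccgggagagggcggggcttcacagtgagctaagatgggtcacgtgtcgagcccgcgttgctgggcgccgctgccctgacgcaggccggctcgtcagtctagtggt
Ift172: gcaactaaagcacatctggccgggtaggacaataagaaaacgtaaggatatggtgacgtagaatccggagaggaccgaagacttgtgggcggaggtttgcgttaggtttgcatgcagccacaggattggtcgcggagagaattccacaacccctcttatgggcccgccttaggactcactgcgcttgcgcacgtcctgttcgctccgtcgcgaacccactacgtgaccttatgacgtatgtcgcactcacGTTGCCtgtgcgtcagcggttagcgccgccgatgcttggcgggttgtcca
Sass6: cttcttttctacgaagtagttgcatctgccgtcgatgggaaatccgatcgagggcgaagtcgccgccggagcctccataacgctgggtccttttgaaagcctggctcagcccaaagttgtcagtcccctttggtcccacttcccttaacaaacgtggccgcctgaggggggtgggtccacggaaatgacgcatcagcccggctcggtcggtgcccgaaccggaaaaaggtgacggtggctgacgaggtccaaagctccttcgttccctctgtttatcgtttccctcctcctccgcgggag
The windows are chr6:30693700-30693999 for Cep41, chr3:36613340-36613639 for Bbs7 and chr5:31291065-31291364 for Ift172, all on the minus strand, and chr3:116594708-116595007 for Sass6 on the plus strand. In Cep41 the pair begins 131 bases before the start, with 3 bases between GTTGCC and GGCAAC, and in Bbs7 the half-site begins 121 bases before it.

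The half-site GTTGCC was in 16 of the 57 promoters (28.1%) and in promoters of 14.1% of all 27025 genes in the table. It was in 5 of 19 downregulated, 1 of 5 upregulated and 9 of 31 uncalled genes with a promoter. The pair, GTTGCC and GGCAAC with 0 to 3 bases between them, was in Cep41 alone of the 57, and in 0.189% of all genes. CHR, TTTGAA, was in 10 of the 57 (17.5%) and in 20.2% of all genes, and Sass6 holds it once. Of the E2F motifs, TTTGGCG was in 1 of the 57 and in 1.77% of all genes, and TTTCCCG in 9 (15.8%) and in 3.92% of all genes. Of these 9 genes, 1 was downregulated, 1 upregulated and 7 not called. The uncalled include Cep83 and Cep83os, whose windows overlap on opposite strands, so the same matches are counted for both genes. These are matches of letters, not sites of binding.

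Centrosome and cilium genes with other names held downregulated and upregulated genes too. Of 95 tested genes in 3 such lists, 26 (27.4%) were downregulated and 5 (5.26%) upregulated, where 13.8% and 10.4% of all genes tested were. These lists were written with earlier results of this contrast known, so nothing is read from the distance between the shares. Their genes are also low, with a median of 0.483 for the mean FPKM over the 6 libraries. Of all genes tested under 1 FPKM, 18.6% were downregulated and 7.82% upregulated. Among 42 centrosome and centriole genes, 10 were downregulated and 3 upregulated (median log2 fold change -0.54). Spice1, a centriole duplication gene, fell by 4.34 on the log2 scale (edgeR adjusted p = 0.00229), and Crocc, which encodes the rootlet protein rootletin, fell by 2.86 (adjusted p = 0.00223). Fbf1, a distal appendage gene, rose by 4.37 (adjusted p = 0.0186), from 6.48, 8.26 and 5.85 CPM in control mice to 41.6, 16 and 369 CPM, so ethanol replicate 3 carries most of its size.

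Of 26 genes for IFT motors, further IFT subunits and BBSome partners, 9 were downregulated and 1 upregulated (median log2 fold change -0.58). Ttc21b, an IFT-A subunit, fell by 2.93 (edgeR adjusted p = 0.000444), and the kinesin-2 genes Kif3a and Kifap3 fell by 2.50 (adjusted p = 0.00107) and 2.06 (adjusted p = 0.00975). Mkks, the third BBSome chaperonin-like gene, fell by 2.39 (adjusted p = 0.00118), alongside Bbs10 and Bbs12 of the set. Of 27 transition zone and nephrocystin genes, 7 were downregulated and 1 upregulated (median -0.66), among them Armc9, which fell by 2.91 (adjusted p = 0.000452), and Rpgrip1l, which fell by 2.54 (adjusted p = 0.005).

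Of 9 tested genes in a list of RFX and other transcription factors, 3 were downregulated and 0 upregulated, where 13.8% and 10.4% of all genes tested were. RFX genes make up 6 of the 9, and of these Rfx3, Rfx4 and Rfx7 were downregulated while Rfx1 (-0.50), Rfx2 (-1.34) and Rfx5 (-0.57) were not called. The remaining factors, Foxj1 (-1.46), E2f4 (0.41) and E2f5 (0.81), were not called either, and E2f5 was higher in every ethanol-exposed mouse. Rfx4 measured 0.469, 0.278 and 0.678 CPM after ethanol and 3.65, 2.69 and 3.01 CPM in control mice, a fall of 2.72 on the log2 scale (edgeR adjusted p = 0.00156). Rfx3 fell by 1.58 (edgeR adjusted p = 0.00563) and Rfx7 by 1.22 (adjusted p = 0.000785). Of 18 tested mitotic and proliferation genes, 5 were downregulated (27.8%) and 1 upregulated (5.56%), beside the same shares of all genes. They are low genes, with a median of 0.0921 for the mean FPKM over the 6 libraries. The 12 not called include Mki67 (-0.73), Cdk1 (0.00), Ccna2 (-0.28) and Ccnb2 (0.45), whose groups overlapped. The mitotic activator Cdc20 fell by 3.72 (edgeR adjusted p = 0.0135), from 50, 80 and 41 counts in control mice to 3, 6 and 0. The survivin gene Birc5 fell by 2.34 (adjusted p = 0.00232). The checkpoint kinase gene Ttk, with 19, 14 and 25 counts in control mice and none after ethanol, was at least 4.42-fold lower. The upregulated gene was Plk1, which rose by 1.39 (adjusted p = 0.0496), at 24, 28 and 39 counts against 20, 12 and 19. Of the 17 motile cilium genes found, 9 were tested, and 1 was downregulated and 1 upregulated, Drc1 and Dnai2. These are 11.1% each, near the shares of all genes. Dnai2 was without a count in control mice and at least 6.14-fold higher after ethanol.

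**Figure D4:**
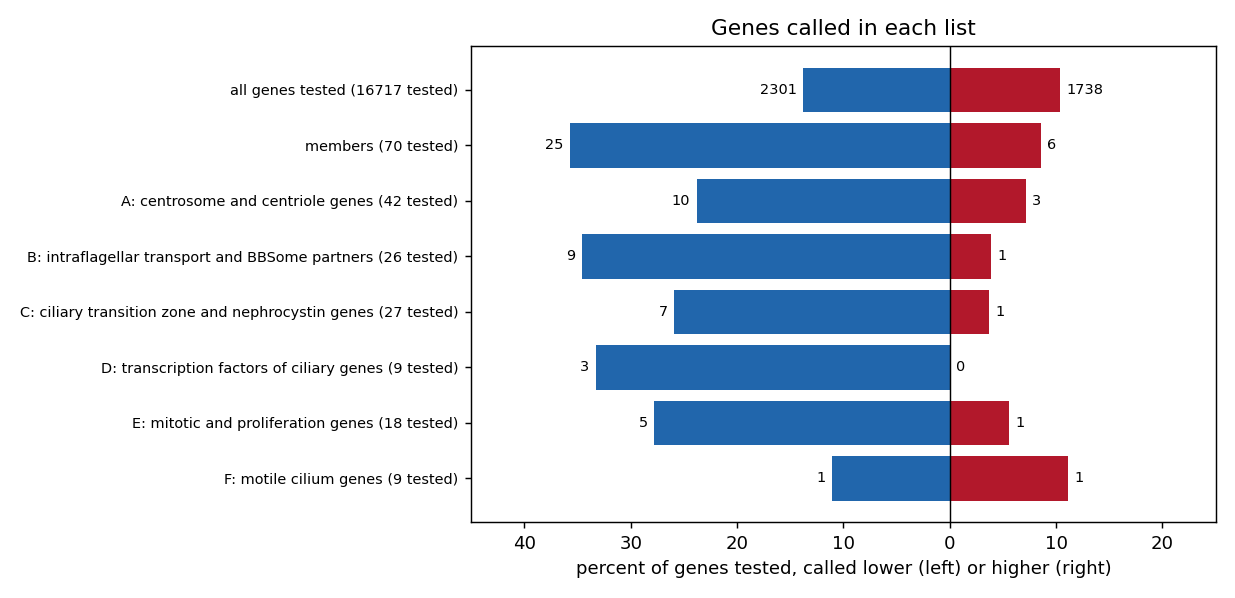
Percent of genes tested that were downregulated (blue, to the left) or upregulated (red, to the right) among all genes, the set and 6 further lists, with the number of genes beside each bar. All genes stand at 13.8% and 10.4%, the set at 35.7% and 8.57%, and the lists are small, from 9 to 42 genes tested. The set and the lists were chosen with earlier results of this contrast known.

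Markers of the cell types in liver were measured beside these genes. Cholangiocyte markers, of the ciliated bile duct cells, summed to 96.2 to 121 CPM after ethanol and 83.3 to 125 CPM in control mice, so the ranges overlapped. None of the 13 was at 0 in every library, and of the 11 tested Sox9 was upregulated and Pkhd1, itself the gene of a ciliary protein, downregulated. Stellate cell markers, of another ciliated type, summed to 144 to 168 CPM against 134 to 171 CPM, with 2 of 8 downregulated. Much of that sum was Dcn, not called, at 87.5, 104 and 88.2 CPM against 65.7, 66.9 and 75.1 CPM. Endothelial markers summed to 90.1 to 159 CPM against 95.1 to 112 CPM, with 2 of 7 downregulated and 2 upregulated. Lyve1, which was upregulated, measured 24.2, 33.3 and 69.3 CPM against 3.39, 3.67 and 3.49 CPM and weighs on the upper end. Kupffer cell markers summed to 78.1 to 108 CPM against 111 to 121 CPM, and T and NK cell markers to 0 to 0.568 CPM against 0.777 to 0.906 CPM. Neutrophil markers summed to 2.12 to 12.1 CPM against 0.118 to 0.401 CPM, with 4 of 4 tested upregulated, and erythroid markers to 403 to 600 CPM against 142 to 175 CPM, with 2 of 3 tested upregulated. Hepatocyte markers summed to 139000 to 150000 CPM after ethanol and 75500 to 86800 CPM in control mice, without overlap, with 3 of 9 upregulated and 0 downregulated. Most of this sum was Alb, at 92800, 94800 and 93900 CPM against 59700, 49900 and 49600 CPM. Alb was not called (log2 fold change 0.82), and the median log2 fold change of the 9 markers was 0.70. The part of these markers in the changes of the centrosome and cilium genes was not tested.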

How the data were processed

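Liver RNA of 6 mice was sequenced as paired reads of 150 bases, and samples were grouped by their labels (3 ethanol, 3 control). The authors deposited whole-number counts of reads per gene, not normalized, and FPKM values scaled to transcript length and library size. They removed adaptor, low-quality and ambiguous reads before alignment. The aligner, counter and strand setting are not given in the sources used here, so overlapping and near-identical genes are uncertain. The submitters' processing notes name GRCm38 and mm10, but of 27049 genes shared with a GRCm38 annotation only 502, and none of the set, have its coordinates. The table holds 1 further column of values that matches no sample and was not used. The table's other columns are annotation, of which names, coordinates, transcript types and gene ontology terms were used.

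Counts were analysed in R 4.3.3 with edgeR 4.0.16 (filterByExpr, TMM, quasi-likelihood test, no covariates, Benjamini-Hochberg adjustment over the 16717 genes tested). CPM are on the TMM-scaled library size. Where no library of a group held more than 3 counts, a floor of 3 counts per library was used to bound the fold, for counting error only. Alternatives used DESeq2 1.42.0 and limma 3.58.1 (log2 of FPKM plus 1 or 0.1), other scalings and filters, the replicate number as a block, removal of the trend with length, and each library left out in turn. The fit was tested on simulated counts.

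The genes of the set, the role groups, the further lists and the marker lists were chosen with earlier results of these data known. Values in every library are given for the 6 genes taken one by one, for the largest fall and rise among called genes in each role group, and for the next called genes by size of log2 fold change up to 30 genes. Other genes of the set are given more briefly, some with their values too, and 1 is counted in the totals but not reported here on its own. Genes of further lists were named among the 4 largest called changes of a list or as transcription factors. In the mitotic list the upregulated gene and some genes not called were named as well. Genes that overlap the set, and markers, were looked up as such. Depth leaves counting error small except for genes with few counts, and the 3 mice per group limit the precision. Each library came from 1 mouse.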

Additional observations from a re-analysis of the deposited data

How the results depend on the processing

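DESeq2, median ratio factors in edgeR, upper quartile scaling, removal of the length trend, no filter on low counts and leaving out genes overlapped on the same strand gave 21 to 27 downregulated and 4 to 6 upregulated of 59 to 75 genes of the set tested, where 8.33% to 15.6% and 6.07% to 11.4% of all genes were. The adjusted p alone gave 33 and 6, where 21.5% of all genes were called in each direction. None of the 31 genes called in the main fit was called in the opposite direction by any of 17 alternatives. The other genes of the set were not compared in this way. The median log2 fold change, -0.82, was -0.91 with upper quartile scaling and -0.63 with the length trend removed. Library size alone gave 45 downregulated genes, where 32.2% of all genes were, and a median of -1.48, and in the further lists 67 downregulated and 3 upregulated genes in place of 35 and 7. Requiring a mean of 1 FPKM left 4 downregulated and 5 upregulated of 23 genes tested and a median of -0.14 in the set, where 12.1% and 10.6% of all genes were called. In the lists it left 3 downregulated and 4 upregulated genes. Most genes of the set and the lists are lower and were no longer tested. The mean includes the ethanol-exposed mice, so a gene's change helps to decide whether it passes, and nothing is read from these counts. With limma on log2(FPKM + 1), which understates changes of low genes, 2 of 75 genes of the set were downregulated and 2 upregulated with a median of -0.35, where 6.4% and 1.43% of all genes were, and 3 and 0 in the lists. With limma on log2(FPKM + 0.1) the set had 38 and 3 with a median of -1.01, where 18.7% and 2.72% of all genes were called, and the lists 50 and 1. The adjusted p alone gave 39 downregulated and 12 upregulated genes in the lists. Relative to the median of all genes, the set's median ran from -0.79 to -0.16 over the alternatives, -0.16 being that of genes at 1 FPKM or more. Leaving out 1 library gave 18 to 31 downregulated and 5 to 6 upregulated genes of the set (9.88% to 16.5% and 8.57% to 10.9% of all genes), a median of -0.87 to -0.75, and 26 to 40 and 4 to 7 genes in the lists. Of the calls, 16 of 25 downregulated and 5 of 6 upregulated genes kept theirs in all 6 such fits. The log2 fold change of Stil, 1.18, ran from -0.04, without ethanol replicate 2, to 1.65 in these fits. The cause of these shifts was not tested where none is given.

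No sign of pairing by replicate number was seen: deviations from the group means of mice sharing a number correlated at -0.03, -0.02 and -0.02. These correlations cannot show whether the mice were handled in pairs. With the replicate number as a block, 22 genes of the set were downregulated and 6 upregulated with a median of -0.81, where 12% and 9.08% of all genes were called, and 30 genes of the lists were downregulated and 4 upregulated.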
